A study of Mus musculus with 27 samples.

Results

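Small nucleolar RNAs (snoRNAs) and small Cajal body RNAs (scaRNAs) were taken from the gene-level RNA-Seq table by name, as the rows whose identifier begins with Snora, Snord or Scarna. The rule found 119 of the 24065 rows, of which 36 were H/ACA box snoRNAs (Snora), 74 were C/D box snoRNAs (Snord) and 9 were scaRNAs (Scarna). Whole C57BL/6J mouse embryos at E8.5 were compared, 3 wild type (WT) and 3 Dnmt3b-/- littermates from crosses of heterozygous parents, with 1 library of total RNA per embryo. The Dnmt3b-/- embryos carried on both copies the allele obtained by crossing Dnmt3b-2lox mice with a Cre deleter line driven by the ACTB promoter, so the loss concerned the whole embryo. No embryo received a treatment. The comparison asks whether the loss of DNMT3B, one of the enzymes that set DNA methylation after implantation, was accompanied by other levels of these RNAs.

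C/D box snoRNAs guide the methylation of the ribose of ribosomal RNA, and H/ACA box snoRNAs guide the conversion of uridine into pseudouridine. The scaRNAs carry the same boxes, reside in Cajal bodies and direct these modifications on the RNAs of the spliceosome. In vertebrates most of them are released from introns of a host gene after splicing, whereas a few are transcribed from a promoter of their own. Each class is stabilised by its own core proteins, which are fibrillarin, NOP56, NOP58 and the 15.5K protein for C/D RNAs and dyskerin, NOP10, NHP2 and GAR1 for H/ACA RNAs.

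The box sequences followed the names. The motif CTGA (D box) was in the last 12 bases of 71 of the 74 C/D rows and of 2 of the 36 H/ACA rows, and the motif ACA in the last 6 bases of 34 of the 36 H/ACA rows and of 1 of the 74 C/D rows. The C box motif TGATGA, searched on the transcribed strand in the first 20 bases, was found in 24 C/D rows and in no H/ACA row. Of the 9 scaRNA rows, 4 held the D box motif and 3 the terminal ACA. The RefSeq sequences of 10 of the 11 rows that passed the test below are given here so that these boxes can be seen (GRCm38, 5′ to 3′, DNA letters). Capitals mark the C box, D box or ACA motif where it was found, and in Snord111, Snord52 and Snord61 the C box motif had no exact match in its window. In RefSeq these spans have 64, 59 and 62 bases, and in GENCODE 89, 66 and 71. Each of these GENCODE spans begins further to the 5′ side. A C box before the start of a RefSeq span would be missed, here and in other C/D rows. Lower in Dnmt3b-/- embryos were the following.
Snora70: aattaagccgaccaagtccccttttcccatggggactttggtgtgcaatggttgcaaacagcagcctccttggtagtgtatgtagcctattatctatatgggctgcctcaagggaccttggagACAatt
Scarna10: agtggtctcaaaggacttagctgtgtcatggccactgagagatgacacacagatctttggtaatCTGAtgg
Snora78: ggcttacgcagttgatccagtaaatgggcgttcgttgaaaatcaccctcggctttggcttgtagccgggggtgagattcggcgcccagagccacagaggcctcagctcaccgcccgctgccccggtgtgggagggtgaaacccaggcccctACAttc
Scarna2: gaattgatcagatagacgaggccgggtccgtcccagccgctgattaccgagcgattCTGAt
Snord95: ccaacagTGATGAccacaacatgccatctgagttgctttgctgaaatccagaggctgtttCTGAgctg
Snord52: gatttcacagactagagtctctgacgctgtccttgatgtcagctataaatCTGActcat
Snord96a: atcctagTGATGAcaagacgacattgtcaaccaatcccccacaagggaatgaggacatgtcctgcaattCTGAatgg
Higher in Dnmt3b-/- embryos were the following.
Snord111: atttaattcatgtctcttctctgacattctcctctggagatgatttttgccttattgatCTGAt
Snora23: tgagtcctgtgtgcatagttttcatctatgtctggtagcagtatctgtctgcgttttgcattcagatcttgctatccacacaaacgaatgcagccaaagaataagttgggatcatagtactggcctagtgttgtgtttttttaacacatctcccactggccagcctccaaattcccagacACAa
Snord61: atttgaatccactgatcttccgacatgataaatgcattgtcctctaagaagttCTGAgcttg
Each of these sequences had a single match in the genome at 95% identity.

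The 6 libraries held between 41489332 and 58470286 counts. The 119 rows took 0.0129% to 0.0211% of them, and their tested rows had a median of 41.7 counts per embryo against 822 for all tested genes. Dnmt3b had 7263, 13956 and 6280 normalized counts in WT embryos and 4063, 4541 and 4740 in Dnmt3b-/- embryos (log2 fold change −1.04 ± 0.27, adjusted p = 0.0169), and these gene-level counts include exons outside the deleted ones. All 10 E8.5 embryo markers were detected, with a summed level of 26537 to 65174 in WT and 31383 to 46891 in Dnmt3b-/- embryos. Hbb-bh1 alone was at 8892 to 36798 in WT and 6300 to 18447 in Dnmt3b-/- embryos. By edgeR, Sox2 (log2 fold change −0.48 ± 0.09) and Nkx2-5 (−0.79 ± 0.20) were lower. Sox1 (0.54 ± 0.15) and Tnnt2 (0.62 ± 0.16) were higher. These are 20% of the markers in each direction, against 18.1% and 17.6% of all tested genes. The 5 yolk sac endoderm markers (Afp, Ttr, Apoa4, Apob, Rbp4) were present in every library, with a summed level of 15078 to 124009 in WT and 7707 to 28545 in Dnmt3b-/- embryos, highest in WT embryo 2. Of the 5 trophoblast and decidua markers, Tpbpa, Prl3d1, Prl2c2 and Prl8a2 were at 0 in the 6 libraries and Plac1 was at 170 to 742. The part of yolk sac tissue in the results below was not tested. Since whole embryos were sequenced, fewer cells of a type and less RNA per cell cannot be told apart.

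Loss of DNMT3B was accompanied by lower levels of 8 members and higher levels of 3 among the 80 members that averaged 10 counts or more per embryo (edgeR quasi-likelihood test, adjusted p below 0.05 over the 15114 genes tested). Over all tested genes 18.1% were lower and 17.6% higher at this threshold, so both shares of the members (10% and 3.75%) were below the background. These RNAs have few counts. Of the 80 tested members, 62 had a mean of 10 to 100 counts, and 4 of these were lower and 2 higher, against 4.56% lower and 4.28% higher over the 3247 genes in the same range of counts. Without WT embryo 1 the lower members were 5. All 11 members also changed by more than 2-fold, and 3.78% (lower) and 2.12% (higher) of all tested genes met both thresholds. The fold threshold thus removed none of the called members and lowered only the background shares. At both thresholds together the share of lower members (10%) was above the background, which was not matched for counts. That of higher members (3.75%) rests on 3 rows and is not read as a difference from the background. Values of the 3 embryos of each genotype did not overlap for 15 lower and 10 higher members, against 26.5% and 25.3% of all tested genes. The plot of normalized counts by embryo shows the 11 members.

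**Figure D1:**
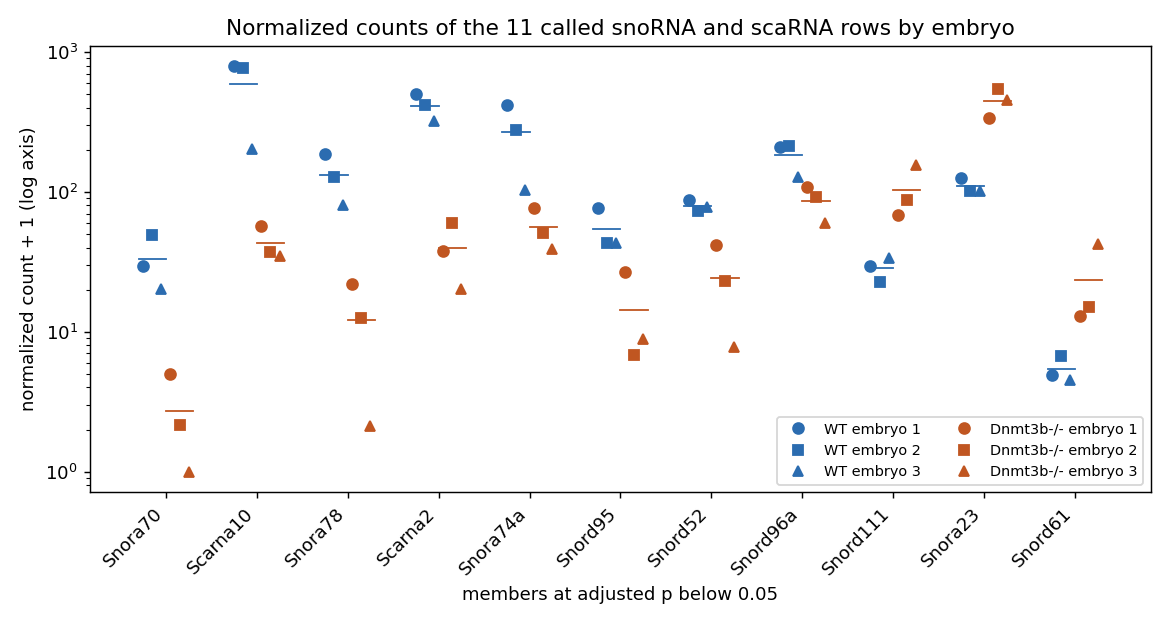
Normalized counts plus 1 (log axis) of the 11 members at an adjusted p below 0.05, ordered by fold change. Each point is 1 embryo and each line the mean of the 3 embryos of a genotype, WT in blue and Dnmt3b-/- in orange. The 3 Dnmt3b-/- embryos lie below the 3 WT embryos for the 8 members on the left and above them for the 3 on the right.

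The scaRNAs contributed 2 of the 8 lower members among only 6 tested rows. Scarna10 (chr6:125186361-125186431, minus strand), a scaRNA of the U5 spliceosomal RNA that lies in an intron of the condensin gene Ncapd2, had 791, 771 and 202 normalized counts in WT embryos and 55.9, 36.1 and 33.9 in Dnmt3b-/- embryos. The lowest WT embryo was still above the highest Dnmt3b-/- embryo, and WT embryo 3 was 25.5% of WT embryo 1. Scarna10 was 13.9-fold lower (log2 fold change −3.80 ± 0.53, adjusted p = 0.0015 by edgeR). Scarna2 (chr3:108554342-108554402, minus strand), a scaRNA of the U2 spliceosomal RNA with no host gene in RefSeq, had 499, 420 and 319 normalized counts in WT embryos and 37.0, 59.3 and 19.2 in Dnmt3b-/- embryos. The genotypes were far apart and the WT embryos were closer to each other than for Scarna10. Scarna2 was 10.7-fold lower (log2 fold change −3.42 ± 0.39, adjusted p = 0.00081 by edgeR).

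If the counted rows had the RefSeq spans used here, both values describe the end of the RNA. The RefSeq span of Scarna2 has 61 bases and that of Scarna10 has 71 bases, which is 14.7% and 21.8% of the 414 and 325 bases given by GENCODE for the same genes. The sequences above are these spans and hold a D box motif and no terminal ACA.

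The other 4 tested scaRNAs did not pass the test. Scarna6, in an intron of the autophagy gene Atg16l1, had 133, 125 and 30.9 normalized counts in WT embryos and 16.0, 40.7 and 0 in Dnmt3b-/- embryos. WT embryo 3 lay below Dnmt3b-/- embryo 2, so the genotypes overlapped (log2 fold change −2.34 ± 0.98, adjusted p = 0.0952 by edgeR). Scarna13, an intronic RNA of the long non-coding gene Snhg10, had 2023, 1355 and 1475 normalized counts in WT embryos and 1712, 1348 and 1554 in Dnmt3b-/- embryos. It had the highest count of all members and its genotypes overlapped throughout (log2 fold change −0.07 ± 0.16, adjusted p = 0.757). Its span contains that of Mir3069, another row of the table. Scarna9 had 33.2, 35.5 and 53.8 in WT and 38.9, 40.7 and 70.0 in Dnmt3b-/- embryos (log2 fold change 0.29 ± 0.40, adjusted p = 0.615). Scarna17 had 9.48, 3.43 and 6.17 in WT and 17.0, 16.3 and 7.91 in Dnmt3b-/- embryos (log2 fold change 1.07 ± 0.63, adjusted p = 0.223), close to the level of 3 counts, which was 2.37 to 3.49 normalized counts depending on the library.

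Among H/ACA snoRNAs, 3 were lower and 1 was higher of 30 tested. Snora70 (chrX:74272492-74272620, plus strand), in an intron of the ribosomal protein gene Rpl10, had 28.4, 48.1 and 19.4 normalized counts in WT embryos and 3.99, 1.16 and 0 in Dnmt3b-/- embryos. The Dnmt3b-/- values are 4, 1 and 0 reads, so its fitted fold (log2 fold change −4.06 ± 0.85, adjusted p = 0.00755 by edgeR) has little depth behind it and was −5.50 without Dnmt3b-/- embryo 1. Snora78 (chr17:24719676-24719832, minus strand), in an intron of the long non-coding gene Snhg9, had 187, 127 and 80.3 normalized counts in WT embryos and 20.97, 11.6 and 1.13 in Dnmt3b-/- embryos. Each Dnmt3b-/- embryo was below each WT embryo, and embryo 3 was the lowest of its genotype on both sides. Snora78 was 11.4-fold lower (log2 fold change −3.51 ± 0.69, adjusted p = 0.00578 by edgeR), and −4.34 without Dnmt3b-/- embryo 1. Snora74a, in an intron of the long non-coding gene Snhg4, had 419, 277 and 102 normalized counts in WT embryos and 75.9, 50.02 and 38.4 in Dnmt3b-/- embryos. WT embryo 3 was again the lowest WT embryo and was 24.4% of WT embryo 1. Snora74a was 4.84-fold lower (log2 fold change −2.27 ± 0.51, adjusted p = 0.00948 by edgeR).

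Snora23 (chr7:110046364-110046547, plus strand) was the H/ACA member that rose. This RNA of 184 bases lies in an intron of the nuclear import gene Ipo7 and had 125, 101 and 101 normalized counts in WT embryos and 335, 544 and 456 in Dnmt3b-/- embryos. The lowest Dnmt3b-/- embryo was well above the highest WT embryo. Snora23 was 4.08-fold higher (log2 fold change 2.03 ± 0.23, adjusted p = 0.00081 by edgeR).

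Among C/D snoRNAs, 3 were lower and 2 were higher of 44 tested. Snord95 (chr11:48803139-48803206, plus strand) and Snord96a (chr11:48802033-48802109, plus strand) lie in introns of the same host, the ribosome-associated scaffold gene Gnb2l1 (current symbol Rack1). Snord95 had 75.8, 42.3 and 42.3 normalized counts in WT embryos and 26.0, 5.82 and 7.91 in Dnmt3b-/- embryos (log2 fold change −1.99 ± 0.61, adjusted p = 0.0350 by edgeR). Snord96a had 207, 212 and 127 in WT embryos and 108, 90.7 and 58.7 in Dnmt3b-/- embryos (log2 fold change −1.08 ± 0.32, adjusted p = 0.0288 by edgeR). Neither overlapped between genotypes, and the margin of Snord96a was narrow (127 against 108). Snord52 (chr17:34950950-34951008, minus strand), in an intron of the non-coding gene 1110038B12Rik, had 86.9, 72.1 and 76.7 normalized counts in WT embryos and 40.9, 22.1 and 6.78 in Dnmt3b-/- embryos (log2 fold change −1.74 ± 0.55, adjusted p = 0.0392 by edgeR). The WT embryos were alike and the Dnmt3b-/- embryos were spread over a wide range.

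The other C/D members to pass were higher. Snord111 (chr8:110838535-110838598, minus strand), in an intron of the splicing factor gene Sf3b3, had 28.4, 21.7 and 32.6 normalized counts in WT embryos and 66.9, 86.1 and 154 in Dnmt3b-/- embryos. Without overlap between genotypes, it was 3.67-fold higher (log2 fold change 1.88 ± 0.40, adjusted p = 0.0083 by edgeR). Snord61 (chrX:57391448-57391509, minus strand), in an intron of the RNA-binding protein gene Rbmx, had 3.95, 5.72 and 3.53 normalized counts in WT embryos and 11.98, 13.96 and 41.8 in Dnmt3b-/- embryos (log2 fold change 2.34 ± 0.70, adjusted p = 0.0316 by edgeR). Its WT values were just above the level of 3 counts, and Dnmt3b-/- embryo 3 was far above the others.

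Calls of 4 C/D members depended on single embryos. Snord95 was lost without WT embryo 1 (edgeR adjusted p = 0.137), WT embryo 3 (0.0582), Dnmt3b-/- embryo 2 (0.0989) or Dnmt3b-/- embryo 3 (0.0942), and its log2 fold change was −2.93 without Dnmt3b-/- embryo 1. Snord96a was lost without WT embryo 1 (0.103), WT embryo 2 (0.0596), Dnmt3b-/- embryo 2 (0.0760) or Dnmt3b-/- embryo 3 (0.0762). Snord52 was lost without WT embryo 1 (0.113), WT embryo 3 (0.0830) or Dnmt3b-/- embryo 2 (0.110), and its log2 fold change was −2.42 without Dnmt3b-/- embryo 1. Snord61 was lost without WT embryo 1 (0.105) or WT embryo 3 (0.0971), and without Dnmt3b-/- embryo 3 it fell below the minimum count. Scarna2, Scarna10, Snora70, Snora74a, Snora78, Snora23 and Snord111 passed with each of the 6 embryos left out in turn.

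Of the 5 H/ACA snoRNAs with most counts, Snora23 and Snora74a passed (above) and the other 3 did not. Snora81, in an intron of the translation factor gene Eif4a2, had 552, 610 and 406 normalized counts in WT embryos and 661, 586 and 544 in Dnmt3b-/- embryos (log2 fold change 0.19 ± 0.17, adjusted p = 0.420). Snora65, in an intron of Rpl12, had 197, 195 and 193 in WT and 166, 188 and 228 in Dnmt3b-/- embryos (log2 fold change −0.01 ± 0.20, adjusted p = 0.981). Both overlapped between genotypes. Snora28, in Eif5, had 212, 199 and 143 in WT and 149, 152 and 120 in Dnmt3b-/- embryos (log2 fold change −0.40 ± 0.24, adjusted p = 0.227).

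Of the 5 C/D snoRNAs with most counts, Snord96a passed (above) and the other 4 did not. Snord17, in an intron of Snx5, had 614, 347 and 281 normalized counts in WT and 288, 463 and 297 in Dnmt3b-/- embryos (log2 fold change −0.25 ± 0.31, adjusted p = 0.573). Snord22, in an intron of Snhg1, had 317, 241 and 148 in WT and 137, 164 and 176 in Dnmt3b-/- embryos (log2 fold change −0.57 ± 0.29, adjusted p = 0.163). In both, WT embryo 1 was the highest and the remaining embryos overlapped. Snord22 passed without WT embryo 3 (−0.81, edgeR adjusted p = 0.0439). Snord104 had 230, 209 and 265 in WT and 308, 272 and 411 in Dnmt3b-/- embryos, and Snord19, in an intron of Gnl3, had 127, 126 and 132 in WT and 150, 205 and 158 in Dnmt3b-/- embryos. Their genotypes did not overlap, yet neither passed (log2 fold change 0.49 ± 0.21, adjusted p = 0.0962 for Snord104 and 0.41 ± 0.22, adjusted p = 0.179 for Snord19).

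The classes were compared by their medians and counts. The median log2 fold change was −0.15 over 30 H/ACA snoRNAs, −0.21 over 44 C/D snoRNAs and −1.21 over 6 scaRNAs, against −0.03 over all tested genes. Fold changes lay between −4.06 and 2.03 for H/ACA and between −1.99 and 2.34 for C/D snoRNAs, and the middle 50% of them between −0.61 and 0.10 and between −0.67 and 0.49. The scaRNA median rests on few rows and lay between values far apart, as the plot of fold changes by class shows. The sign of the C/D median was not stable, since it was 0.22 with a minimum average of 50 counts, 0.12 without WT embryo 1 and 0.11 without Dnmt3b-/- embryo 3. The H/ACA median was −0.48 without Dnmt3b-/- embryo 1. The scaRNA median was −2.03 without WT embryo 1, −2.22 without Dnmt3b-/- embryo 1 and −3.53 without Dnmt3b-/- embryo 2. It was −3.42 over the scaRNAs with a mean of at least 100 counts and −0.09 when scaRNAs below the minimum of 10 counts were added.

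**Figure D2:**
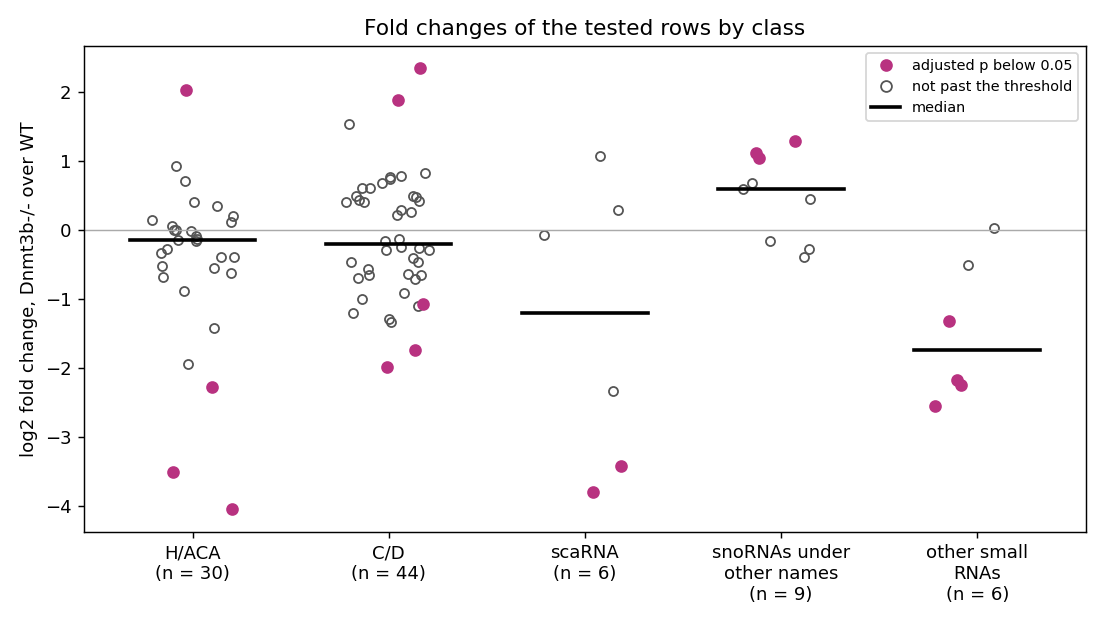
log2 fold change (Dnmt3b-/- over WT) of each tested row of the H/ACA, C/D and scaRNA classes, of snoRNAs listed under other names and of other small RNAs. Filled points passed an adjusted p below 0.05 and lines are medians. Within 1 log2 unit of 0 lie 58 of the 74 snoRNAs, while the 2 called scaRNAs and the 3 lower H/ACA snoRNAs lie between −4.06 and −2.27.

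The counts of a class were also summed in each embryo. H/ACA rows summed to 3028, 2827 and 2160 normalized counts in WT embryos and to 2608, 2714 and 2317 in Dnmt3b-/- embryos. C/D rows summed to 3202, 2963 and 2441 in WT and to 2704, 2843 and 2581 in Dnmt3b-/- embryos. Both sums overlapped between genotypes, with means at 95.3% and 94.5% of WT. All 9 scaRNA rows summed to 3499, 2719 and 2097 in WT and to 1885, 1556 and 1690 in Dnmt3b-/- embryos, with a Dnmt3b-/- mean at 61.7% of WT and no overlap. Scarna13 made up most of this sum in Dnmt3b-/- embryos, and the scaRNA rows other than Scarna13 summed to 1476, 1364 and 622 in WT and to 174, 208 and 136 in Dnmt3b-/- embryos. The latter sum did not overlap either, with a Dnmt3b-/- mean at 14.9% of WT. Scarna2 and Scarna10 made up 86.7% of this sum in WT embryos. As these 2 rows were already called lower, the sum largely repeats their result and is no separate support.

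**Figure D3:**
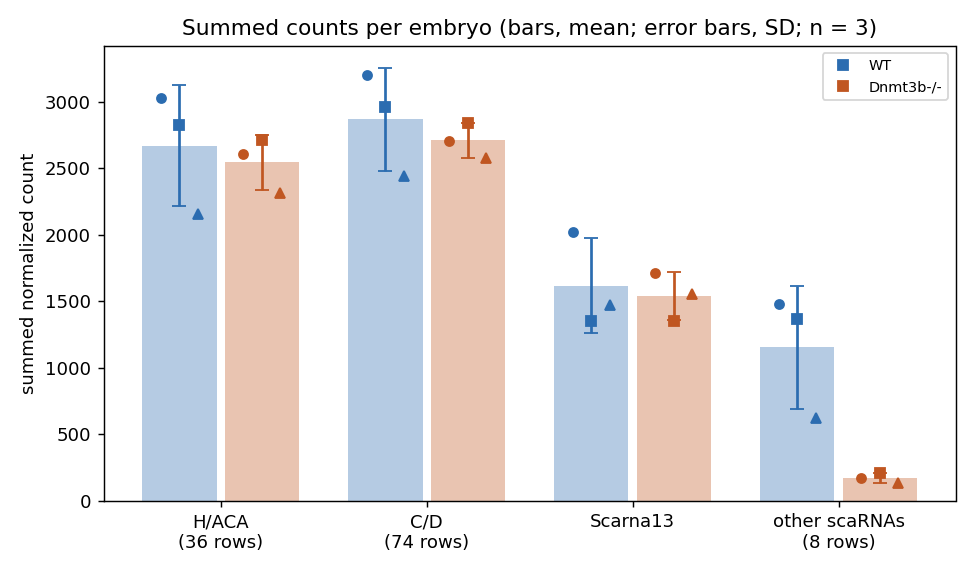
Summed normalized counts of the H/ACA rows, the C/D rows, Scarna13 and the other scaRNA rows in WT (blue) and Dnmt3b-/- (orange) embryos. Bars are means, error bars are SD (n = 3) and points are embryos, with the symbols of the embryos as in the plot of the called members. The genotypes separate for the other scaRNAs, at 622 to 1476 against 136 to 208, and overlap for the remaining sets. In WT embryos the other scaRNAs are mostly Scarna2 and Scarna10, the rows already called lower.

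Per length, the members with the highest WT level were Scarna10 (177 ± 101 FPKM, SD, n = 3), Scarna2 (145 ± 32.4) and Scarna13 (126 ± 29.3), followed by Snord104 (68.8 ± 8.73) and Snora81 (68.1 ± 13.3). The first 3 did not differ beyond their spread, and neither did the other pair. In Dnmt3b-/- embryos Scarna10 was at 12.1 ± 3.88 FPKM and Scarna2 at 12.9 ± 6.76, close to the median WT level of tested H/ACA (11.3) and C/D (11.7) snoRNAs, while Scarna13 was at 114 ± 15.7. The levels of Scarna2 and Scarna10 are per base of RefSeq spans of 61 and 71 bases, shorter than the reads of 75 bases. In GENCODE these RNAs have 414 and 325 bases, and Scarna13 has 275. The part of RNA length in this ranking, including the recovery of short RNAs, was not tested.

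The WT embryos were not alike for the lower members. WT embryo 3 had the lowest WT value for 7 of the 8 lower members and for 46 of the 80 tested members, against 30.6% of all tested genes. In Dnmt3b-/- embryos, embryo 3 was the lowest for 7 of the 8 lower members and for 37 of the 80 tested members, against 39.8% of all tested genes. Dnmt3b-/- embryo 3 was also the library with most zeros. Of the 62 tested members with a mean of 10 to 100 counts, 7 were at 0 in this library alone (Scarna6, Snora41, Snora47, Snora70, Snord67, Snord73a and Snord8), or 11.3%, against 6.34% of the 3247 genes in the same range of counts. The other 5 libraries had 0 or 1 such member.

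Introns held most members. RefSeq placed 116 of the 119 rows inside a gene on the same strand, 85 in protein-coding genes, 32 of them genes of ribosomal proteins, and 31 in long non-coding genes. Scarna2, Snord118 and Snord89 had no host. Over the 59 tested hosts of tested members, 20 were lower and 16 higher (33.9% and 27.1%, against 18.1% and 17.6% of all tested genes), with a median log2 fold change of −0.06. Without Dnmt3b-/- embryo 2 these counts were 13 and 8. Most of these hosts had more counts than the median of 822 for all tested genes. Shares of called genes were smaller at few counts, with 4.56% lower and 4.28% higher at a mean of 10 to 100 counts. The background of all tested genes is therefore not matched to the counts of the hosts. Member and host changed in the same direction in 43 of 73 pairs, whatever the size of the change, and Pearson's r over the pairs was 0.11 (Spearman's rho 0.16), a description in which several members share a host.

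Each called member with a host in RefSeq was set beside that host, which was not chosen for its change. The hosts had more counts than the members within them, except for Snhg9, and Scarna2 had no host. Rpl10 (log2 fold change −0.06 ± 0.08, adjusted p = 0.588), Ncapd2 (−0.18 ± 0.07, adjusted p = 0.0614) and 1110038B12Rik (−0.10 ± 0.12, adjusted p = 0.545) did not pass the test, while Snora70, Scarna10 and Snord52 within them fell. Snhg4 rose (log2 fold change 0.44 ± 0.12, adjusted p = 0.0192) where Snora74a fell, and Sf3b3 fell (−0.21 ± 0.06, adjusted p = 0.0279) where Snord111 rose. Gnb2l1 (−0.53 ± 0.09, adjusted p = 0.00313) fell with Snord95 and Snord96a. Ipo7 (0.34 ± 0.09, adjusted p = 0.0156) and Rbmx (0.42 ± 0.07, adjusted p = 0.00281) rose with Snora23 and Snord61. Snhg9, the host of Snora78, was below the minimum count, with 8.69, 5.72 and 13.2 normalized counts in WT and 14.98, 6.98 and 1.13 in Dnmt3b-/- embryos. Of the 9 called members with a tested host, 4 had a host called in the same direction, 2 in the opposite direction and 3 a host that did not pass.

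**Figure D4:**
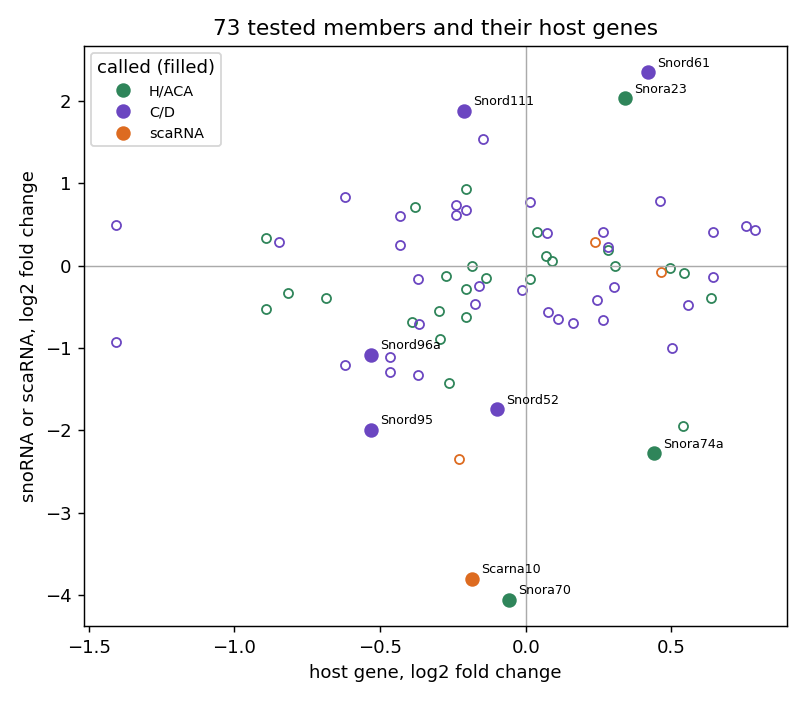
log2 fold change of 73 tested members (vertical axis) against that of the host gene that contains each (horizontal axis), coloured by class, with called members filled and named. The hosts of the called members lie between −0.53 and 0.44, and called members lie on both sides of 0 at hosts of either sign.

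Several tested members lay in the same host for 12 hosts, and differences between members of a host were not tested. Snhg12 (log2 fold change −0.21 ± 0.13) contains Snora16a (−0.63 ± 0.42), Snora44 (0.93 ± 0.64), Snora61 (−0.29 ± 0.50) and Snord99 (0.68 ± 0.40), none of which passed the test. 2410006H16Rik, which fell (log2 fold change −1.41 ± 0.12, adjusted p = 0.000414), contains Snord49a (−0.93 ± 0.33) and Snord49b (0.49 ± 0.50), neither past the test. Snord49a passed with a minimum average of 50 counts and with scaling by total counts.

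The lists of proteins below are read against 18.1% lower and 17.6% higher over all tested genes, a background not matched for counts. The core proteins did not move together. Among C/D core proteins, Nop58 (log2 fold change 0.64 ± 0.12, adjusted p = 0.0039) and Nop56 (0.25 ± 0.07, adjusted p = 0.0213) rose, whereas fibrillarin (Fbl, −0.22 ± 0.07, adjusted p = 0.0525) and Nhp2l1, the gene of the 15.5K protein (0.04 ± 0.07, adjusted p = 0.717), did not pass. Among H/ACA core proteins, the pseudouridine synthase gene Dkc1 rose (log2 fold change 0.73 ± 0.11, adjusted p = 0.00172), Nop10 (−0.53 ± 0.10, adjusted p = 0.00453) and Nhp2 (−0.42 ± 0.07, adjusted p = 0.00356) fell, and Gar1 did not pass (−0.05 ± 0.11, adjusted p = 0.757). Nop56 did not pass without WT embryo 1, WT embryo 2 or Dnmt3b-/- embryo 2, and Fbl passed without WT embryo 2 or Dnmt3b-/- embryo 3. The sign of Nhp2l1 turned to −0.04 with scaling by total counts, and that of Fbl, Nop56, Nop58, Dkc1, Nop10, Nhp2 and Gar1 held under each scaling.

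Of the 10 assembly factors, 2 were lower (Znhit3 and Ruvbl2) and 2 higher (Naf1 and Nolc1), and none of the 10 passed without WT embryo 3, Dnmt3b-/- embryo 2 or Dnmt3b-/- embryo 3. Leaving out WT embryo 1 gave 1 lower and 0 higher, leaving out WT embryo 2 gave 1 higher, and none was higher with scaling by total counts. Of the 9 genes of snoRNA maturation and decay, 1 was lower, the exonuclease gene Toe1 (log2 fold change −0.61 ± 0.12, adjusted p = 0.00574), and 5 were higher, among them the debranching enzyme gene Dbr1 (0.40 ± 0.10, adjusted p = 0.0122) and the poly(A) polymerase gene Papd5 (0.81 ± 0.11, adjusted p = 0.0012). The remaining higher genes were Xrn2, Dis3 and Tgs1. Of 12 genes of the Cajal body and the SMN complex, which loads spliceosomal RNAs with proteins, 6 were lower and 1 was higher (50% and 8.33%, against 18.1% and 17.6% of all tested genes). Wrap53, whose product takes scaRNAs to Cajal bodies, fell (log2 fold change −0.71 ± 0.11, adjusted p = 0.00225), as did Coil, the gene of coilin (−0.28 ± 0.09, adjusted p = 0.0376). Gemin4, Gemin5, Gemin7 and Ice1 also fell, and Smn1 rose (1.00 ± 0.12, adjusted p = 0.000873). Among the 12 tested host genes named Snhg or Gas5, Snhg7 fell and Gas5, Snhg4, Snhg5 and Snhg11 rose. The medians of these lists were 0.05, 0.37, −0.23 and 0.29, against −0.03 over all tested genes.

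Of 6 other small RNAs with enough counts, 4 were lower and none was higher, again beside 18.1% and 17.6% of all tested genes. Terc, the telomerase RNA, which ends in an H/ACA domain, had 558, 367 and 251 normalized counts in WT embryos and 74.9, 93.1 and 80.2 in Dnmt3b-/- embryos (log2 fold change −2.25 ± 0.31, adjusted p = 0.00141 by edgeR). It was lower in each Dnmt3b-/- embryo than in each WT embryo, and WT embryo 3 was the lowest of the WT. Rmrp and Rpph1, the RNAs of RNase MRP and RNase P, had log2 fold changes of −2.56 ± 0.35 and −2.18 ± 0.33, with WT embryo 3 at 32.6% and 38.7% of WT embryo 1. Rnu12, of the minor spliceosome, was also lower (−1.32 ± 0.34, adjusted p = 0.0176). Rnu11 (0.03 ± 0.41) and Rnu73b (−0.52 ± 0.45) did not pass, Rnu6 and Rnu7 were listed at 0 in the 6 libraries, and Vaultrc5 was below the minimum count.

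The 9 rows that RefSeq types as snoRNA but that carry other names were looked at after the values were seen. AF357359 (1380, 1663 and 1074 normalized counts in WT, 3152, 3277 and 1991 in Dnmt3b-/- embryos), AF357355 and AF357425 rose, with log2 fold changes of 1.03 ± 0.22, 1.29 ± 0.36 and 1.11 ± 0.37, and none of the 9 passed as lower. The rows that rose all lie on chromosome 12. AF357426, DQ267100, DQ267101 and DQ267102, also on chromosome 12, did not pass. Neither did AF357399 on chromosome 7 (−0.40 ± 0.30) and Gm12238 on chromosome 11 (−0.16 ± 0.35). Only 1 of the 9 passed without WT embryo 1, WT embryo 3, Dnmt3b-/- embryo 1 or Dnmt3b-/- embryo 2. Of 1122 microRNA rows, 46 were tested, of which 1 was lower and 7 were higher, with a median of −0.05, and 3 were higher without WT embryo 3 or Dnmt3b-/- embryo 2. The other genes were also grouped by exon length. The median log2 fold change was −0.09 over 55 rows of up to 300 bases, the range of the RefSeq spans of the members. It was −0.47 over 114 rows of 300 to 500 bases and 0.05 over rows longer than 4000 bases. Of the rows of up to 300 bases, 5.45% were lower and 10.9% higher. Of the rows of 300 to 500 bases, 49.1% were lower and 7.89% higher. By their GENCODE lengths, Scarna2 (414 bases) and Scarna10 (325 bases) fall in the latter range. The part of length in the results was not tested.

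The remaining 39 members were below the minimum count. Of these, 14 had no count in any embryo and 25 had some. Among the 14, 7 touched an exon of another row of the table (such as Snora24 in Snhg8, Snora26 in Dancr, Snord1a in Snhg16 and Snora36b with Mir664), and 4 had an identical copy elsewhere, among them the Snord116 rows with 31 identical copies. Only 1 of the 80 tested members, Scarna13, touched such an exon and none had an identical copy. Snora35, Snord118, Snord14c and Snord14d were at 0 with neither feature, although Snord118, Snord14c and Snord14d each had a second match at 95% identity. Htr2c, the host gene of Snora35, was also at 0 in every library. How overlapping rows and repeated sequences were treated in the counting is not given in the sources used here, and its part in these zeros was not tested. A count of 0 does not show that an RNA was absent, since an expected count of up to 3 per library can give it. Where a row touches another exon or has an identical copy, a count of 0 may set no such limit.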

How the data were processed

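RNA-Seq was performed on 6 whole E8.5 embryos, 1 stranded library of rRNA-depleted total RNA per embryo. The authors used the RNeasy Protect Mini Kit to extract the RNA, and the recovery of short RNAs at this step was not tested. Per the labels and methods, the authors aligned paired reads of 75 bases to mm10 with TopHat2 2.0.12 and deposited raw counts per RefSeq gene from HTSeq 0.6.0. The RefSeq release and strand setting are not given in the sources used here. Hosts were taken on the same strand as the member. Reads of unspliced host introns therefore cannot be told from those of the RNA inside, whatever the strand setting. Selection of fragments by size can lower counts of short RNAs. The deposited table also holds the authors' DESeq2 1.4.5 normalized signal, which differed from the raw counts by 1 factor per library and served only to check them, and the fold changes and adjusted p-values of their own comparison, which were not used.

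Genes averaging 10 counts or more per embryo were tested with edgeR 4.0.16 (TMM scaling, glmQLFit and glmQLFTest) on R 4.3.3, with Benjamini-Hochberg adjustment over 15114 genes and no covariate. A normalized count is the raw count divided by the library size times its TMM factor and multiplied by the mean library size. Errors of log2 fold changes are standard errors from the quasi-likelihood F. The genotypes share replicate numbers, but nothing in the labels pairs the embryos. FPKM was computed from the counts and RefSeq lengths. Positions, hosts and sequences came from RefSeq GRCm38.p6, in which all 119 members were placed, and copies were searched with blastn 2.17.0. The script was tested on simulated data. DESeq2 1.42.0, other scalings and filters, a replicate block and leaving out each embryo were tried.

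Members are named by rule, as all called by more than 2-fold, the 5 with most counts per snoRNA class, every tested scaRNA and their hosts. Members that share a host and are named there for it, those at 0 in single libraries and those without counts were chosen after their values were seen. The members and the gene lists were chosen with earlier results of these data known. The RRBS libraries of the series were not used here.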

Additional observations from a re-analysis of the deposited data

How the results depend on the processing

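The tests were repeated with no filter on low counts, a minimum mean of 50 counts, DESeq2 size factors, scaling by total counts, the DESeq2 Wald test, a replicate block, and each embryo left out in turn. Leaving out 1 embryo gave 5 to 10 lower and 2 to 3 higher members, against 8 and 3, and 5 to 10 and 2 to 3 beyond 2-fold; the lowest count was without WT embryo 1. The H/ACA median ranged from −0.48 to −0.0051, the C/D median from −0.16 to 0.12, and the scaRNA median from −3.53 to −0.91 in these fits. The C/D median was 0.22 at a minimum mean of 50 counts. The scaRNA median was −0.085 with no filter, −2.89 at a minimum mean of 50 counts, −3.42 over scaRNAs with a mean of at least 100 counts and −2.34 without Scarna13, which touches an exon of another gene; fewer or more rows enter each of these medians. Signs turned only for small differences that did not pass. Snora65 was at 0.011 with DESeq2 size factors and by the DESeq2 Wald test, and Nhp2l1 at −0.041 with total counts. With single embryos left out, Snora65 ranged from −0.13 to 0.11, Snord17 from −0.50 to 0.15, Scarna13 from −0.19 to 0.12, Scarna9 from −0.020 to 0.54 and Gar1 from −0.11 to 0.030.

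Deviations of embryos with the same replicate number correlated at −0.06, −0.15 and −0.01, so the numbers were not taken to pair the samples. With a replicate block, 9 members were lower and 2 higher, Scarna6 passed (log2 fold change −2.81, adjusted p = 0.0287 by edgeR) and Snord61 did not (2.15, adjusted p = 0.0819), nor did Nop56 (0.24, adjusted p = 0.0581). The DESeq2 Wald test called 12 members, the 11 reported and Scarna6 (adjusted p = 0.032). Snord61 was also lost with no filter on low counts (adjusted p = 0.053). Snord49a passed at a minimum mean of 50 counts and with total counts, where Fbl also passed and Nop56 did not. The low counts limit what could be called, and nothing shows that members past the threshold in one class and not in another differ between classes. The cause of these changes was not tested.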
